A study of Mus musculus with 4 samples.

Results

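MHC class II antigen presentation was followed through 9 genes, chosen by function: the chains of the class II molecules (H2-Aa, H2-Ab1, H2-Eb1), the invariant chain Cd74, the transactivator Ciita, and the peptide loading genes H2-DMa, H2-DMb1, H2-Oa and H2-Ob. Probes were assigned to them through the RefSeq accession that the array files give. This found 12 probes for 8 of the 9 genes. H2-Eb1 had no probe under its accession and was not analysed here. Of the 8, 7 genes with 11 probes passed the filter on dim probes, which asked that both arrays of a group stood well above background, among 13234 named genes that passed it, and H2-Ob did not.

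Total RNA came from mammary glands of 13-week-old female mice, taken before neoplasia. The 2 arrays labelled STM KO (KO 1 and KO 2) carried RNA from stathmin knockout mice and the 2 labelled WT (WT 1 and WT 2) RNA from mice wild type for stathmin, the product of Stmn1, which destabilises microtubules. All 4 samples shared the Δ16HER2 transgene, a splice form of human HER2, so there was no sample without it, and the promoter that drives it and the kind of Stmn1 deletion are not given in the sources used here. Nothing says that each array stands for a separate animal, so p-values measure the spread between these samples only. The RNA is of bulk tissue, in which fewer cells of a type and less RNA per cell cannot be told apart.

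Class II molecules present peptides from endosomes to CD4 T cells. Dendritic cells, B cells and macrophages carry them all the time, and interferon gamma induces them in many other cells, epithelium included. An alpha and a beta chain assemble on the invariant chain, which blocks the groove and guides them to endosomes. There proteases trim the invariant chain, H2-DM exchanges the remaining fragment for a peptide, and H2-O, found mainly in B cells, restrains H2-DM. CIITA, which does not bind DNA itself, switches these genes on by docking onto factors bound to the X and Y boxes of their promoters.

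The promoters of 6 of the 9 genes were in the RefSeq table (build GRCm38.p6), and 4 are shown because they carry the boxes through which these genes are known to be controlled together. No entry was matched for H2-Ab1, Ciita and Cd74. Each sequence runs 5′ to 3′ from 250 bases before to 50 bases after the annotated gene start, and capitals mark an X box core (GNAAC) followed by a Y box core (TGATTGG), whose starts lie 25 to 35 bases apart. The motifs were settled after these promoters were read, were searched on both strands, and do not overlap each other.
H2-Aa, chr17:34287774-34288073, minus strand: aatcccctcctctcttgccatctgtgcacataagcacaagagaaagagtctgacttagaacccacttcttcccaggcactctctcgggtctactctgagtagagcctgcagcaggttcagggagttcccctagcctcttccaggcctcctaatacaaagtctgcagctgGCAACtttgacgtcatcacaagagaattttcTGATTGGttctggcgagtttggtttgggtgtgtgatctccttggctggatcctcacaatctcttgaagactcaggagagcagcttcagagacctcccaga
H2-DMb1, chr17:34152941-34153240, plus strand: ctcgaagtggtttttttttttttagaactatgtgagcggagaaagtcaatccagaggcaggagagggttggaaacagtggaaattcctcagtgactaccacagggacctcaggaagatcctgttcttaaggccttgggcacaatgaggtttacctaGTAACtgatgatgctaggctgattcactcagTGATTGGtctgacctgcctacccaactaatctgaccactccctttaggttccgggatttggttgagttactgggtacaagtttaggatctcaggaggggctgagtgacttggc
H2-Oa, chr17:34092129-34092428, plus strand: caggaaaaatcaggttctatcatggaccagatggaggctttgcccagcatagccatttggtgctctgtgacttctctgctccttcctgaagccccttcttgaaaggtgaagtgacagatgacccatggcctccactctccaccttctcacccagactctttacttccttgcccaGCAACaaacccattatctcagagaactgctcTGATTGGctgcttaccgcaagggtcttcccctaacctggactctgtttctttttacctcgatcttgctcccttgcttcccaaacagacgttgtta
H2-Ob, chr17:34238655-34238954, plus strand: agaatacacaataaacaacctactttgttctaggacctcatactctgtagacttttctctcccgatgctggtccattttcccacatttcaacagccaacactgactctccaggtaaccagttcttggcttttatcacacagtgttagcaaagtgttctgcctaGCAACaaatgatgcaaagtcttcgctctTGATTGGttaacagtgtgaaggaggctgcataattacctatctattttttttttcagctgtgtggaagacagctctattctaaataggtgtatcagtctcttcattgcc

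The ordered pair stood in the promoters of 5 of the 6 genes: the 4 printed and H2-Eb1. Its cores began 31 bases apart in H2-Aa, H2-DMb1 and H2-Oa, 30 in H2-Eb1 and 28 in H2-Ob. Neither of the 2 listed start sites of H2-DMa had the Y box core on the gene's strand of its window, or the pair on either strand. Of all 32851 promoter windows in the table, 0.323% held the pair on either strand, 7.82% the Y box core and 84.8% the short X box core. A match describes letters and does not show a bound factor.

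Signals are given as levels, log2 of the processed signal minus the 75th percentile of that array, so a level can be compared between arrays for 1 probe but not between probes. The class II genes stood out on 1 array, KO 2. All 11 tested probes read highest there. KO 2 was highest for 7 of 7 genes (25.6% of all tested genes). It was at least 2-fold above each of the other 3 arrays for 6 of the 7 (1.92% of all tested genes), for 5 of 7 with quantile normalization, normexp or the deposited table, and for 4 of 7 with median scaling. KO 1 was the lowest array for 4 of the 7 (30.1% of all tested genes), but for 2 when arrays were scaled on their medians. KO 2 was known from earlier results to stand apart in lymphocyte genes, so these counts are descriptions and were not tested.

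**Figure D1:**
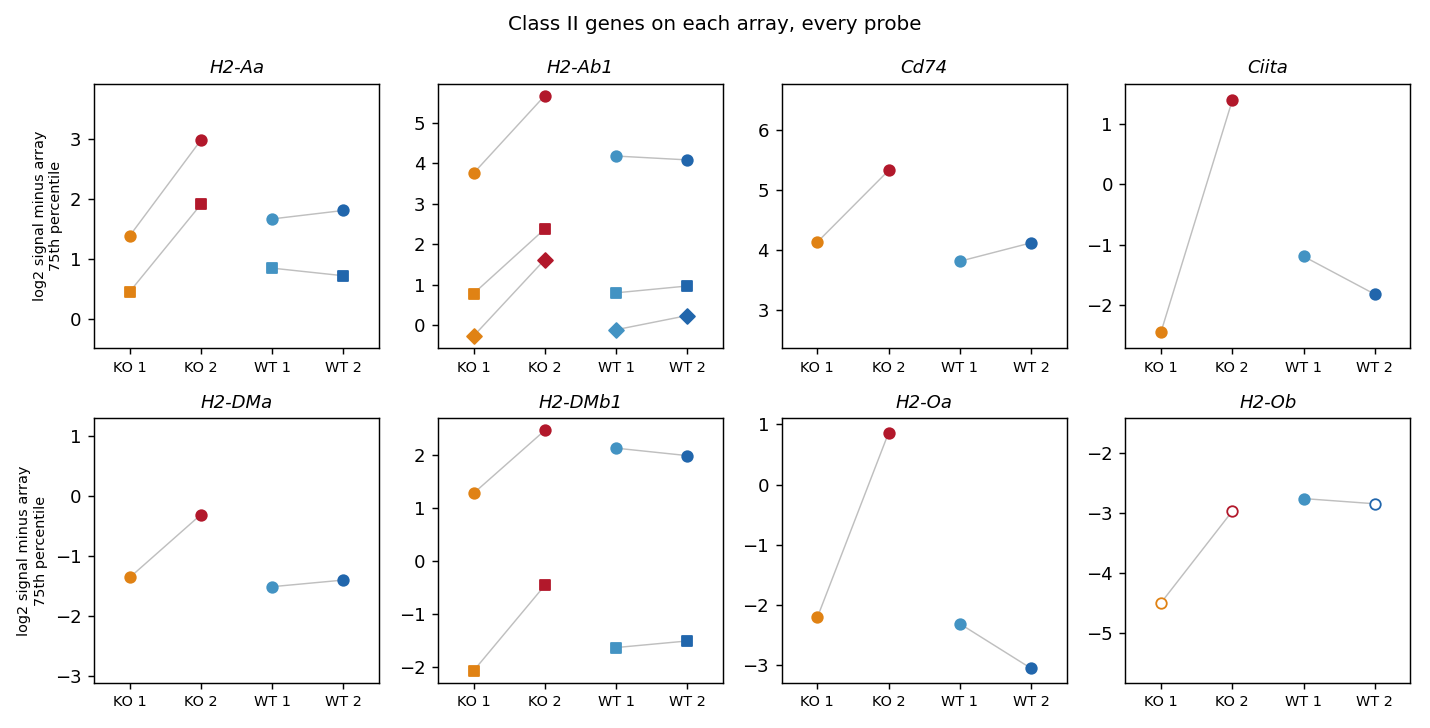
Levels of the 8 measured class II genes on each array (log2 signal minus the 75th percentile of the array), with the knockout arrays on the left. Each symbol shape is 1 probe, open symbols are not well above background, and grey lines join the arrays of a group. KO 2 is highest in every panel but that of H2-Ob.

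The class II chains came first. H2-Aa, the alpha chain of I-A, read 1.39 on KO 1 and 2.98 on KO 2, against 1.67 on WT 1 and 1.81 on WT 2. KO 2 was 3.02-fold above KO 1 and 2.36-fold above the wild-type mean, while KO 1 lay below both wild-type arrays, so the groups overlapped. The group means were 2.18 ± 1.13 in knockout and 1.74 ± 0.10 in wild-type glands (SD, n = 2 each), a log2 fold change of 0.45 ± 0.55 (SE) with an adjusted p of 0.939 from limma. The second H2-Aa probe gave 0.46 and 1.91 on the knockout arrays and 0.85 and 0.72 on the wild-type arrays. It repeated the order of KO 2 at the top and KO 1 at the bottom.

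H2-Ab1, the beta chain of I-A, had 3 probes. The brightest read 3.75 on KO 1 and 5.67 on KO 2, against 4.18 and 4.08 on WT 1 and WT 2, with a log2 fold change of 0.58 ± 0.64 (SE, adjusted p = 0.937). KO 2 was 3.78-fold above KO 1, and the groups overlapped through KO 1. The other probes had log2 fold changes of 0.69 and 0.61, so all 3 gave similar differences. One of these was printed as 10 spots on each array, which shows the error within an array. Its spots on KO 2 spanned levels from 1.37 to 2.63 around a median of 2.45, and those on KO 1 spanned 0.63 to 0.96. On the wild-type arrays they spanned 0.62 to 0.92 and 0.86 to 1.12. The lowest KO 2 spot, which had no outlier flag, still lay above the highest spot of each other array. SDs over the 10 spots were 0.11 on KO 1, 0.36 on KO 2, 0.10 on WT 1 and 0.10 on WT 2 (log2), against 1.13 between the 2 knockout arrays for this probe.

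Cd74, the invariant chain, read 4.13 on KO 1 and 5.32 on KO 2, against 3.81 on WT 1 and 4.12 on WT 2. Both knockout values exceeded both wild-type values, though KO 1 passed WT 2 by far less than the wild-type arrays differed from each other. The means were 4.73 ± 0.84 in knockout and 3.97 ± 0.22 in wild-type glands (SD, n = 2 each), and the log2 fold change was 0.76 ± 0.45 (SE, adjusted p = 0.935).

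Ciita, the transactivator that sets how strongly the class II genes are transcribed, spread more widely. It read -2.45 on KO 1 and 1.40 on KO 2, against -1.20 on WT 1 and -1.83 on WT 2. The knockout arrays thus lay on either side of the wild-type pair, 14.4-fold apart, with means of -0.52 ± 2.72 in knockout and -1.51 ± 0.45 in wild-type glands (SD, n = 2 each). The log2 fold change was 0.99 ± 1.23 (SE, adjusted p = 0.939). Its only probe carries the accession of 1 Ciita transcript, and the alternative promoters of the gene were not told apart.

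The peptide loading genes were less uniform. H2-DMa, the alpha chain of the peptide exchange factor, read -1.36 on KO 1 and -0.31 on KO 2, against -1.51 on WT 1 and -1.40 on WT 2. KO 2 stood apart and the other 3 arrays lay close together, so the groups did not overlap. Its log2 fold change was 0.62 ± 0.40 (SE, adjusted p = 0.935). H2-DMb1, the beta chain, read 1.28 on KO 1 and 2.47 on KO 2, against 2.13 on WT 1 and 1.99 on WT 2, with a log2 fold change of -0.19 ± 0.44 (SE, adjusted p = 0.967). It was the member with the smallest lead of KO 2 over the next array, 0.34 against 1.05 for H2-DMa. Its dimmer probe read -2.07 and -0.46 on the knockout arrays and -1.63 and -1.51 on the wild-type arrays, a lead of 1.05 and a log2 fold change of 0.31, so the probes disagreed in sign. H2-DMb1 has a near copy beside it, H2-DMb2, and cross-hybridisation between them was not tested.

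H2-Oa, the alpha chain of the H2-DM inhibitor, read -2.21 on KO 1 and 0.86 on KO 2, against -2.32 on WT 1 and -3.06 on WT 2. KO 2 was 8.41-fold above KO 1 and 11.7-fold above the wild-type mean, a lead of 3.07 (log2) over the next array. That lead and the 2.60 of Ciita were the widest among the members, and their order turned with median scaling and normexp. The means were -0.68 ± 2.17 in knockout and -2.69 ± 0.53 in wild-type glands (SD, n = 2 each), and the log2 fold change of 2.01 had an adjusted p of 0.935 from limma, with 0.0985 before adjustment. H2-Ob, the partner chain, went differently. Its probe was well above background on WT 1 alone, with processed signals of 13.0 on KO 1 and 20.5 on KO 2, against 28.3 on WT 1 and 20.1 on WT 2. Its levels were -4.49 and -2.96 on the knockout arrays and -2.76 and -2.84 on the wild-type arrays, so KO 2 lay close to the wild-type pair and KO 1 below it. Since 3 of the 4 values were near background, it was not tested and no fold is given.

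The comparison of genotypes called no class II gene. Limma, fitted over all 24182 probes past the filter with Benjamini-Hochberg adjustment, gave adjusted p-values of 0.935 to 0.967 for the 11 member probes. At an adjusted p under 0.05 it called 0 members, and 0% of all tested genes in either direction. At an unadjusted p under 0.05 it called 0 of the 7 members, against 3.53% of all tested genes (1.14% higher and 2.39% lower). Of the 7 log2 fold changes 6 were positive, with a median of 0.62, beside a median of -0.01 and 49.3% positive over all tested genes. Groups did not overlap for 3 of the 7 (Cd74, H2-DMa and H2-Oa), all higher in knockout, as for 17.7% of all tested genes, and for 0 of the 7 were they lower, against 17.7%.

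Each knockout array set against the wild-type pair gave its own answer. In these fits the spread within a group came from the wild-type pair alone, so the difference between KO 1 and KO 2 was left out. KO 2 was also known beforehand to stand apart. The p-values and counts of these fits, and the shares of all tested genes beside them, are therefore descriptions and are not read as tests. With KO 2 alone all 7 log2 fold changes were positive, with a median of 1.36 and a range from 0.41 for H2-DMb1 to 3.55 for H2-Oa. There 6 of the 7 had an unadjusted p under 0.05 on the higher side (3.64% of all tested genes) and 0 on the lower side (3.76%), the lowest adjusted p was 0.129, and the lone array was assumed to vary like the wild-type ones. With KO 1 alone the median was -0.35, and 4 of the 7 were negative: Ciita at -0.94, H2-DMb1 at -0.78, H2-Ab1 at -0.38 and H2-Aa at -0.35. H2-Oa at 0.48, Cd74 at 0.17 and H2-DMa at 0.10 stayed positive. In that fit 1 of the 7 had an unadjusted p under 0.05 on the lower side (6.53% of all tested genes) and 0 on the higher side (1.42%), and no adjusted p was below 0.423. The positive sign for H2-Aa, H2-Ab1 and Ciita therefore rested on KO 2, and the negative sign for H2-DMb1 on KO 1.

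**Figure D2:**
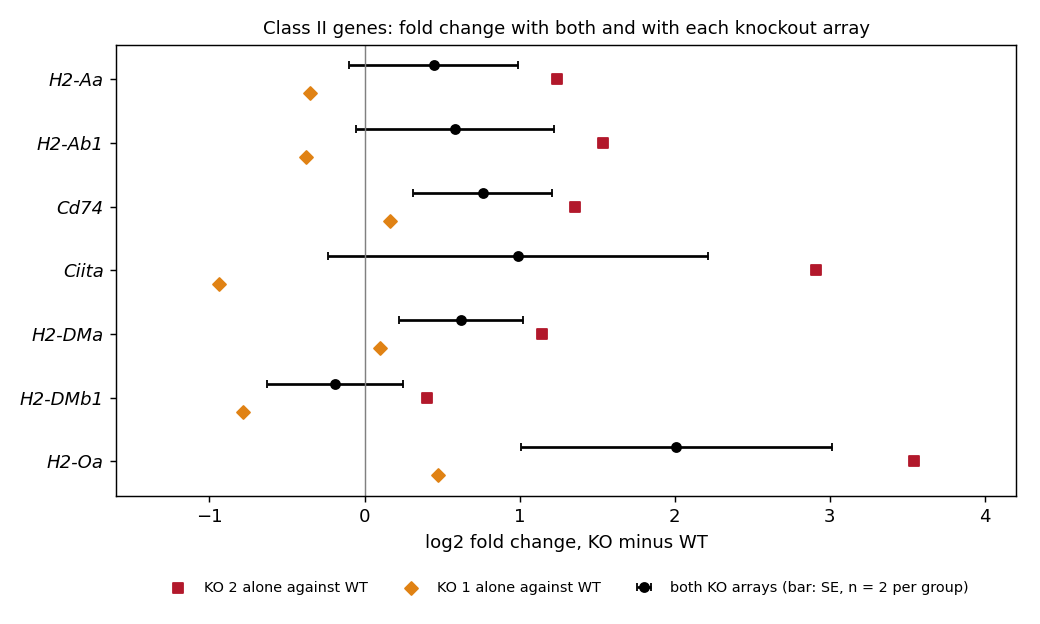
Log2 fold change, knockout minus wild type, of the 7 tested class II genes. Circles use both knockout arrays (bars are SE, n = 2 per group), squares use KO 2 alone and diamonds KO 1 alone against both wild-type arrays. Every square lies right of 0, while diamonds lie on both sides.

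Other genes needed for class II presentation shared the lead of KO 2 in part. It was at least 2-fold for 2 of 16 endosomal genes and 2 of 3 tested genes of the T cell side (1.92% of all tested genes). Of 10 tested transcription factors 1, and of 4 tested costimulation and checkpoint ligands 2, passed the filter through the knockout arrays only. The counts of these lists are therefore not read. None of the 10 tested class II transcription factors, of 12 listed, passed the adjusted test in either direction, and their median log2 fold change was -0.05. Spib, a B cell ETS factor, read -4.09 on KO 1 and 0.87 on KO 2, against -3.95 and -4.50 on WT 1 and WT 2, where it was not well above background. Knockout over wild type came to at least 4.78-fold, through KO 2. Irf8, a factor of dendritic cells and B cells, read 0.02 and 2.44 on KO 1 and KO 2, against 0.77 and 0.80 on the wild-type arrays. The general factors that bind the X and Y boxes gave no such lead: Rfxap had a log2 fold change of 0.10, Rfxank 0.18, Nfyc -0.14 and Nfyb -0.30. Nfya had -0.94 ± 0.87 (SE), with the highest level on WT 2 (3.43). Rfx5 was well above background on 1 array only.

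All 16 endosomal processing and turnover genes were tested. Their median log2 fold change was -0.04, 7 were positive, 9 negative, and 0 passed in either direction. Ifi30, the lysosomal thiol reductase that opens antigens for class II loading, had the highest log2 fold change of the list, 0.67 ± 0.46 (SE), with levels of 0.81 on KO 1 and 2.09 on KO 2, against 0.87 on WT 1 and 0.70 on WT 2. Ctss, the cathepsin that trims the invariant chain, read 3.14 and 4.49 on the knockout arrays and 3.73 and 3.89 on the wild-type arrays. Its knockout and wild-type means were equal at 2 decimals (log2 fold change 0.00 ± 0.48, SE), and again KO 2 was highest and KO 1 lowest. Cd37, a tetraspanin of leukocytes, read -2.95 and -0.28 on the knockout arrays and -1.94 and -1.80 on the wild-type arrays, and with Ifi30 made up the 2 genes with a 2-fold lead. Marchf1, the ligase that removes class II from the surface, had a log2 fold change of 0.26 ± 0.71. The general lysosomal genes Ctsb and Lamp1 had -0.41 and -0.28, and KO 2 was not their highest array.

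Ligands and receptors at the contact with T cells were mostly dim. Of 7 costimulation and checkpoint ligands 4 were tested and 0 passed, with a median of 0.49. For 3 of the 4 the highest array was KO 2 (25.6% of all tested genes). Of the 4, 2 passed the filter through the knockout arrays only, so this count is not read. Icosl, the ligand of ICOS, read -0.28 on KO 1 and 1.23 on KO 2, against -1.31 and -0.25 on the wild-type arrays (log2 fold change 1.26 ± 0.62, SE). Cd40, the receptor through which T cells license antigen presenting cells, read -4.42 and -1.76 on the knockout arrays and -3.26 and -3.67 on the wild-type arrays, a log2 fold change of 0.37. Cd86 led on KO 2 by 0.14 and had a log2 fold change of 0.28. Cd40 and Cd86 passed the filter through the knockout arrays only. Cd274, which encodes PD-L1, read 0.89 on KO 1 and 0.76 on KO 2, against 0.11 and 0.32 on the wild-type arrays, so KO 2 did not lead there. On the T cell side 3 of 6 genes were tested, with a median of 0.35 and 0 calls. Icos read -4.04 on KO 1 and 1.50 on KO 2, against -3.46 and -3.27 on the wild-type arrays. Cd28, a costimulatory receptor, read -3.81 and -1.76 on the knockout arrays and -3.19 and -2.94 on the wild-type arrays, with a log2 fold change of 0.28. Lag3, a receptor that binds class II, had 0.35. Cd4, the coreceptor for class II, was dim throughout, never well above background.

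Interferon gamma signalling genes had no 2-fold lead of KO 2. All 16 were tested and 0 passed in either direction. KO 2 was highest for 7 of them (25.6% of all tested genes) but by 2-fold or more for 0 (1.92%). Of the 16, 1 passed the filter through the knockout arrays only. It was Ifng, for which KO 2 was highest. The widest leads of KO 2 were 0.82 for Socs1, 0.60 for Cxcl10 and 0.45 for Jak2. The median log2 fold change of the list was 0.09. Ifng itself read -3.85 on KO 1 and -3.00 on KO 2, against -3.49 and -3.34 on WT 1 and WT 2. Irf1, a transcription factor induced by interferon, had a log2 fold change of -0.23 ± 0.25 (SE), the receptor kinase Jak2 0.51 ± 0.27 and the chemokine Cxcl9 0.66 ± 0.27. The GTPase genes Iigp1 and Gbp3 had -0.28 and -0.34, and WT 2 was their highest array.

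Class I presentation, which displays peptides from the cytosol and is switched on by NLRC5 rather than CIITA, had no such wide lead. Of 17 genes 15 were tested and 0 passed. KO 2 was highest for 9 of the 15 (25.6% of all tested genes) but by 2-fold or more for 0. Their median log2 fold change was 0.17. B2m, the light chain, had -0.22 ± 0.25 (SE) and H2-K1, a heavy chain, -0.38 ± 0.30, with the wild-type arrays above both knockout arrays for each. Nlrc5 had -0.24 ± 0.62. Psme2, a proteasome activator subunit, and Erap1, the peptide trimming protease, had the highest values, 0.38 and 0.37.

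Position on the chromosome gave a direct contrast. The H2 members lie together on chromosome 17, and in RefSeq gene order the stretch from H2-Oa to H2-Eb2 holds 15 genes, 7 of them members. Between them sit Brd2, Psmb9, Tap1, Psmb8 and Tap2, all well above background on all 4 arrays. KO 2 exceeded KO 1 by a median of 0.24 (log2) for these 5, against a median of 1.59 for the 5 tested members of the stretch. The lead of KO 2 over the next array lay between -0.03 and 0.23 for the 5 neighbours and between 0.34 and 3.07 for the 5 tested members. H2-Ob, the dim member of the stretch, was not tested, and KO 2 had a lead of -0.21 there. The further class II genes H2-DMb2 and H2-Eb2 were well above background on 1 and 0 arrays. Whether the members differ from their neighbours was not tested.

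**Figure D3:**
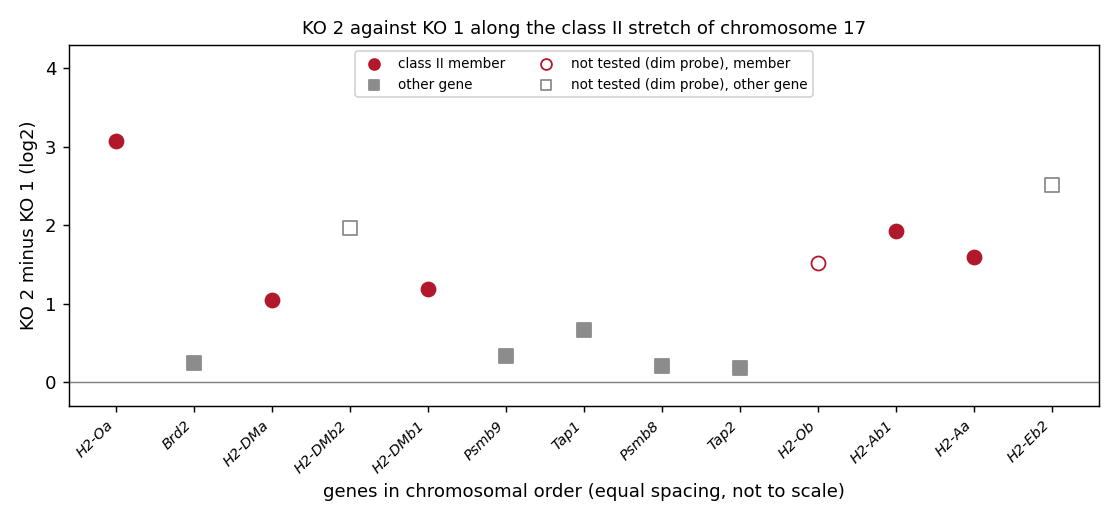
KO 2 minus KO 1 (log2) for the genes with a probe between H2-Oa and H2-Eb2 on chromosome 17, in gene order and equally spaced. Red circles are class II members, grey squares other genes, and open symbols did not pass the filter on dim probes. Filled circles lie between 1.05 and 3.07 and filled squares between 0.19 and 0.66.

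Markers of the cells that carry class II differed in how they moved with it. The summed signal of the tested B cell markers, in multiples of the 75th percentile of the array, was 0.74 on KO 1 and 28.1 on KO 2, against 1.08 on WT 1 and 0.91 on WT 2. The corresponding sums for the 7 class II genes were 36.9 and 109.8 on the knockout arrays and 40.7 and 42.6 on the wild-type arrays. Such sums are carried by the brightest probes, here those of H2-Ab1 and Cd74 (5.67 and 5.32 on KO 2). All 6 tested B cell markers, of 11 listed, were at least 2-fold higher on KO 2 than on any other array (1.92% of all tested genes). KO 2 was known beforehand to stand apart in lymphocyte genes, so this count is a description. Ms4a1, which encodes CD20, read -5.12 on KO 1 and 3.26 on KO 2, against -3.75 and -3.57 on the wild-type arrays. Cd79b, a signalling chain of the B cell receptor, read -1.30 and 3.40 on the knockout arrays and -1.12 and -1.91 on the wild-type arrays. Its partner Cd79a read -5.81 and -1.27 on the knockout arrays and -3.76 and -3.54 on the wild-type arrays. Bank1, a B cell adaptor, had a log2 fold change of 0.80 ± 0.93 (SE). For 5 of the 6 KO 1 was the lowest array (30.1% of all tested genes), as it was for 4 of the 7 class II genes. Pax5 and Blk, dim on every array, could not be read.

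T cell markers, whose cells carry little class II in mice, were in part selected by the filter. Of the 8 tested genes 5 passed it through the knockout arrays only, so their count and summed signal are not read. Cd3d read -2.44 and 2.49 on the knockout arrays and -2.95 and -2.58 on the wild-type arrays. Bcl11b read -2.65 and 0.42 on the knockout arrays and -2.48 and -5.93 on the wild-type arrays. Cd3e had a log2 fold change of 1.48 ± 1.03 (SE) and Cd8a 1.30 ± 0.59, and these 3 genes were among the 5. The lymph node stroma list, of which 6 of 8 were tested, had sums of 7.95 and 51.1 in knockout and 5.87 and 7.65 in wild-type glands. Ccl19 and Ccl21a, chemokines of the T cell zone, read 4.73 and 3.42 on KO 2 and were below 0 on the other 3 arrays, and Madcam1 was not well above background anywhere. The highest array was KO 2 for 4 of these 6 (25.6% of all tested genes). Of the 6, 1 passed the filter through the knockout arrays only. KO 2 was not highest for Pdpn and Tnfsf11. Pdpn read -3.06 and -2.62 on the knockout arrays and -2.25 and -2.43 on the wild-type arrays. Tnfsf11 read -2.96 and -3.85 on the knockout arrays and -1.72 and -5.71 on the wild-type arrays. The part of lymphocytes or lymph node tissue in the class II levels was not tested.

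Macrophage markers did not have the lead, and the 5 tested dendritic cell markers had it only below 2-fold. The 11 tested macrophage markers, of 12 listed, summed to 31.2 on KO 1 and 34.9 on KO 2, against 32.9 on WT 1 and 57.5 on WT 2, and KO 2 was highest for 1 of them. Adgre1, an adhesion receptor of macrophages, had a log2 fold change of -0.47 ± 0.27 (SE), Csf1r -0.18 ± 0.33, C1qc -0.76 ± 0.35 and the scavenger receptor Cd163 -1.15 ± 0.25, and none passed adjustment. The highest were Lyz2 at 0.15 and Cd14 at 0.09. Of 11 dendritic cell markers 5 were tested and 2 were dim on every array (Xcr1 and Cd209a). Their sums were 7.48 and 8.33 in knockout and 6.14 and 12.5 in wild-type glands. Itgax, which encodes CD11c, read -2.63 on KO 1 and -0.68 on KO 2, against -1.27 and -2.36 on WT 1 and WT 2. KO 2 was highest for 4 of the 5 (25.6% of all tested genes), by 2-fold or more for 0, with leads of 0.60 for Itgax, 0.89 for Batf3, 0.87 for Fscn1 and 0.05 for Zbtb46. The sums were carried by Bst2, which interferon also induces and which was highest on WT 2 at 3.45. Ccr7, which guides dendritic cells and T cells to lymph nodes, was not tested and read -5.02 on KO 1 and -0.89 on KO 2, against -4.22 and -3.66 on the wild-type arrays. Its lead on KO 2 was 2.77 (log2). Siglech, also not tested and well above background on KO 2 alone, led there by 2.88. Clec9a and Xcr1, not tested either, were highest on WT 1.

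Luminal markers were not higher on KO 2, and adipocyte markers varied between arrays. Luminal epithelial markers summed to 132 on KO 1 and 88.7 on KO 2, against 128 and 156 on WT 1 and WT 2, and KO 2 was highest for 0 of the 10. The luminal keratin Krt8 read 5.25 and 4.65 on the knockout arrays and 5.25 and 5.38 on the wild-type arrays. Krt19 had a log2 fold change of 0.12, Epcam -0.26 and Elf5 -0.88. Adipocyte markers summed to 529 and 653 in knockout and 586 and 800.5 in wild-type glands, so KO 2 lay above KO 1 and WT 1 and below WT 2. Adipoq had a log2 fold change of -0.27 ± 0.30 (SE), Fabp4 -0.42, Plin1 0.38 and Lep 0.57. Gata3, a luminal transcription factor, had -0.89 ± 0.28, and with Cd163 it was the only listed gene with an unadjusted p under 0.05. Of the luminal and adipocyte lists 9 of 10 and 6 of 6 genes were well above background on all 4 arrays. A description label names EOC cells in place of mammary gland, against the other labels, and was not used.

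**Figure D4:**
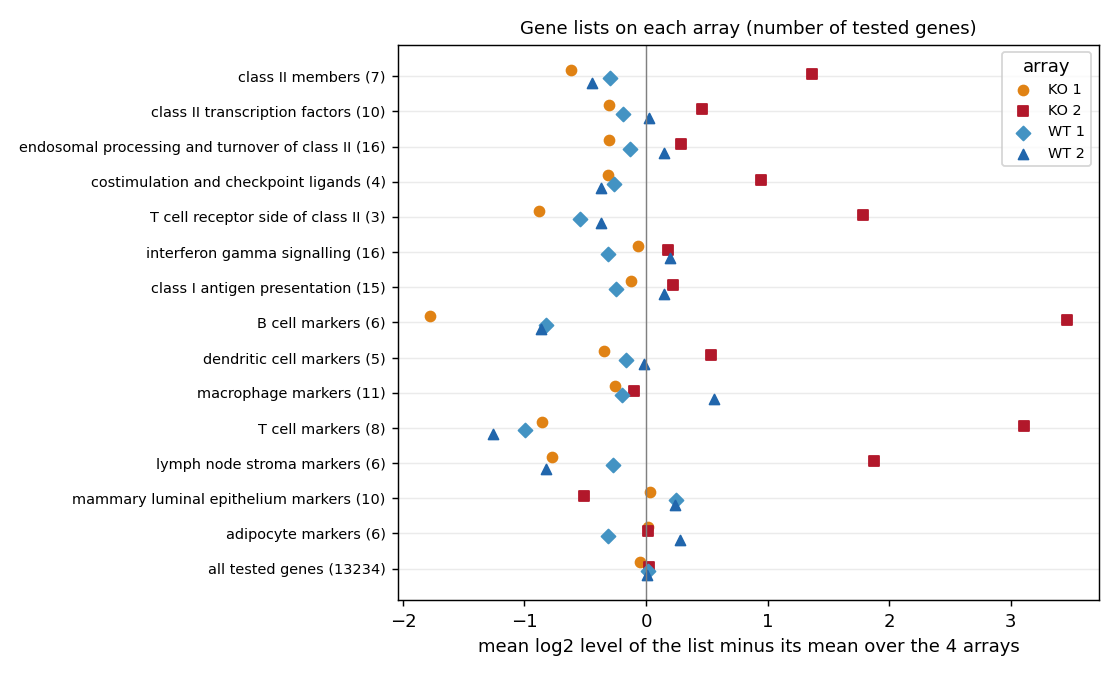
Mean log2 level of each gene list on each array, relative to the mean of that list over the 4 arrays, with the number of tested genes in brackets. On KO 2 (red squares) the class II members stand at 1.36 and the B cell markers at 3.46, while interferon gamma signalling, class I and macrophage genes lie between -0.31 and 0.56 on every array. The T cell markers stand at 3.11 there, but 5 of the 8 passed the filter through the knockout arrays only.

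The genes most like the class II chains and Cd74 in profile were found by distance. The mean centred profile of H2-Aa, H2-Ab1 and Cd74 was -0.49 on KO 1 and 1.08 on KO 2, against -0.36 on WT 1 and -0.24 on WT 2. Over these 4 arrays the 10 closest named genes outside the members were Psd4, Dgka, Nckap1l, Dok3, Lrch4, Ugcg, Itgb2, Med12l, Otulinl and Satb1, with root mean square differences from 0.085 to 0.117 (log2). The median over all other tested genes was 0.66. Among the members, H2-DMa lay at 0.18 from that profile, H2-DMb1 at 0.42, Ciita at 0.87 and H2-Oa at 0.94.

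Across the whole series no spot was saturated, and the share of spots well above background ran from 54.7% to 66.2% by array. The 4 arrays came from 1 slide and 1 scan, with wild-type RNA in its first positions and knockout RNA in the later ones, and an effect of position cannot be told apart from genotype. The main Stmn1 probe read 4.56 and 3.34 on the knockout arrays against 5.59 and 3.59 on the wild-type arrays (log2 fold change -0.64 ± 0.76, SE, adjusted p = 0.938). The dimmer Stmn1 probe read -5.71 and -5.05 on the knockout arrays and -1.13 and -3.39 on the wild-type arrays, and only WT 1 was well above background. Where these probes lie relative to the deleted part is not given in the sources used here, so the arrays are called by the genotype they were labelled with.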

How the data were processed

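The authors deposited scanner files with a processed signal intensity per spot, from Agilent Feature Extraction (its version is 11.5.1.1 in the file headers, 10.7.3.1 in the submitters' processing notes). The authors also deposited a table of centred log2 values, ascribed to GeneSpring by the series' design text, with its steps unstated. It matched quantile-normalized log2 signals centred on each probe's median (Pearson r of at least 0.99997 over probes), and its column medians were 0.00604 and -0.00977 for KO 1 and KO 2 and -0.0178 and 0.0184 for WT 1 and WT 2.

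Spots with outlier flags (35 to 73 per array) and control spots were left out, spots of a probe were averaged, and 41168 probes remained, 27812 of them named through RefSeq accessions (GRCm38.p6). Levels are log2 intensity minus the array's 75th percentile (292 and 160 for KO 1 and KO 2, 191 and 144 for WT 1 and WT 2). A gene is represented by its brightest tested probe. The fit used limma 3.58.1 (R 4.3.3) with no covariates, p-values were adjusted by Benjamini-Hochberg across the tested probes, and it was tested on simulated data. Bounds on folds of dim probes set each dim array at its lowest well-above-background signal or the probe's own signal, whichever was higher.

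Lists and members were chosen with earlier results of these data known. Named beside the members were the 2 highest and 2 lowest fold changes of each list and a preset set of key genes, with up to 10 genes by likeness. Further genes (H2-DMb2, H2-Eb2, Cd37, Ccr7, Siglech, Clec9a, Pax5, Blk, Xcr1, Cd209a, Madcam1, Cd4, Brd2, Psmb9, Psmb8, Tap1, Tap2, Rfxap, Rfxank, Nfyc, Socs1, Cxcl10) were named after their values were seen. The normexp alternative used the spots' median signals, as no mean signal column was given. The number of arrays limits the precision.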

Additional observations from a re-analysis of the deposited data

How the results depend on the processing

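With 2 arrays per group, no member passed an adjusted p of 0.05 under any of the 12 alternatives. Of 56 member fold changes under the 8 alternatives that keep every array, 55 had the same sign and call, and H2-DMb1 turned to 0.058 with the mean of its probes. KO 2 was highest for 7 of 7 members under each of 5 sources of values, with median leads of 1.01 to 1.19 (log2), and at least 2-fold higher for 4 to 6 of them. Members at an unadjusted p under 0.05 numbered 2 with median scaling and 1 with normexp, against 0. Other pathway genes at that p numbered 2 with quantile normalization, median scaling, the stricter filter and the deposited table, and 1 with normexp, the mean of probes and the replicate block, against 0. Median scaling shifted the median of all genes to 0.17, against -0.01, and called 5 genes lower after adjustment, against 0. Without 1 array in turn there were 0 to 6 members, 1 to 12 other pathway genes and 349 to 1052 of all genes at an unadjusted p under 0.05, and a member median of -0.35 to 1.36. The ranges were -0.35 to 1.24 for H2-Aa, -0.38 to 1.54 for H2-Ab1, -0.94 to 2.92 for Ciita and -0.78 to 0.41 for H2-DMb1, and the lowest and highest come from leaving out KO 2 and KO 1. Replicate numbers were not shown to pair the arrays: same-numbered deviations correlated at 0.06 over 24182 probes, and the replicate block changed no member's call. The causes of these shifts were not tested. Each fit without 1 array left a lone array in its group, so its counts at that p are descriptions. H2-Ob lay near background, which limits what its values show.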
